A study of Mastomys natalensis with 3 samples.

Results

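Galectins are small lectins that bind beta-galactose on glycoproteins and glycolipids, and they act both inside cells and, after an unconventional secretion route, at the cell surface and in the matrix. They fall into prototype members with a single carbohydrate-recognition domain, the chimera-type Lgals3 with a collagen-like tail, and tandem-repeat members that carry a pair of such domains on a linker. In the gut, Lgals4 is mostly a product of epithelial cells, where it takes part in apical sorting, whereas Lgals3 is made by epithelial cells and macrophages.

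The 5 galectin genes Lgals1, Lgals3, Lgals4, Lgals5 and Lgals9 were followed across 3 Affymetrix rat arrays hybridised with RNA of the African rodent Mastomys natalensis. Every probe set (a group of short probes read as 1 value) whose annotated symbol was one of these genes was taken, which gave 6 of 8740 non-control probe sets. Lgals1, Lgals3 and Lgals4 had 1 each and Lgals9 had 2. A further probe set was annotated to Lgals9 and Lgals5 together, so Lgals5 had no value of its own. The genes were chosen from the measured values, because Lgals3 and Lgals4 were highest on the carcinoid array. Their rise on that array is therefore a description and not a finding.

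Per the labels, all 3 samples came from the stomach lining of Mastomys and were enriched for ECL (enterochromaffin-like) cells. These endocrine cells store histamine, which drives acid secretion. In 1 group the animals received loxtidine, a blocker of the histamine receptor on parietal cells, for 8 weeks, and in another for 16 weeks. In the last group the animals had a gastric ECL cell carcinoid that arose spontaneously. The sources used here give neither age, nor dose, nor how many animals each sample came from. There was no untreated group. In the source field, the 8-week sample alone was named as ECL cells, the others as mucosa.

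With a single array a group, differences carry neither an SD nor a p-value, and lot label and group cannot be told apart. Values are given as deposited intensity and after quantile normalization, which forces the same distribution on every array. The median deposited intensity ranged from 10.2 to 13.9. Normalized values under a floor of 12.4, the median of all normalized non-control values, were raised to that floor, so a fold against such a value is a bound. The ratio of 3' to 5' GAPDH control signal was 8.95 at 8 weeks, 1.43 at 16 weeks and 2.31 in the carcinoid. Of 14 ECL and neuroendocrine markers with a probe set, 9, 9 and 7 reached the floor in that order. The histamine-forming enzyme Hdc was below it on each array (normalized 4.42, 4.78 and 3.21), as were Slc18a1, Scg3 and Ddc. Among the markers above it on each array was Slc18a2 (normalized 21.7, 42.3 and 23.2). Rat probes can bind Mastomys RNA less well, so levels of different probe sets were not compared.

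Lgals4, the tandem-repeat galectin of gut epithelium, was bright on the carcinoid array and dim on both loxtidine arrays. Its probe set M73553_at read 5.9 at 8 weeks, 5.6 at 16 weeks and 92.5 in the carcinoid as deposited. The normalized intensities were 7.17, 5.15 and 77.9. The carcinoid value stood alone above the floor, and both loxtidine values lay below it. Within its own array the probe set moved from the 37.4th percentile of all non-control probe sets at 8 weeks and the 29.9th at 16 weeks to the 92.5th in the carcinoid. The normalized carcinoid value was at least 6.3-fold above each loxtidine array (log2 difference of at least 2.65).

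Lgals3, the chimera-type galectin also known as the macrophage antigen Mac-2, had the same order of arrays. Its probe set J02962_at read 6.6, 6.2 and 66.9 as deposited at 8 weeks, at 16 weeks and in the carcinoid. The normalized intensities were 8.05, 5.76 and 57.1. Again only the carcinoid value exceeded the floor. Its percentile within the array was 40.0 at 8 weeks, 32.5 at 16 weeks and 88.8 in the carcinoid. The carcinoid value was at least 4.62-fold above each loxtidine array (log2 difference of at least 2.21).

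The dim values of both genes could not be told from background. The array carried 38 controls, chosen by name, with no presumed target in this RNA. The names searched for included murine ones, so some may have a target. Of the 38, 8 reached the floor at 8 weeks, 9 at 16 weeks and 9 in the carcinoid. At 8 weeks 13 of the controls read at or above Lgals3, and at 16 weeks 18. For Lgals4 the numbers were 14 and 21. In the carcinoid none of the 38 reached either gene, the brightest control being 48 on the normalized scale. A change of Lgals3 or Lgals4 between 8 and 16 weeks was not measurable, since both values of each gene lay below the floor. With the floor at 30, the 75th percentile, Lgals4 was at least 2.6-fold higher in the carcinoid, and Lgals3 at least 1.9-fold, under the 2-fold mark. In these mixed samples, a larger share of cells making a transcript and more transcript per cell cannot be told apart.

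**Figure D1:**
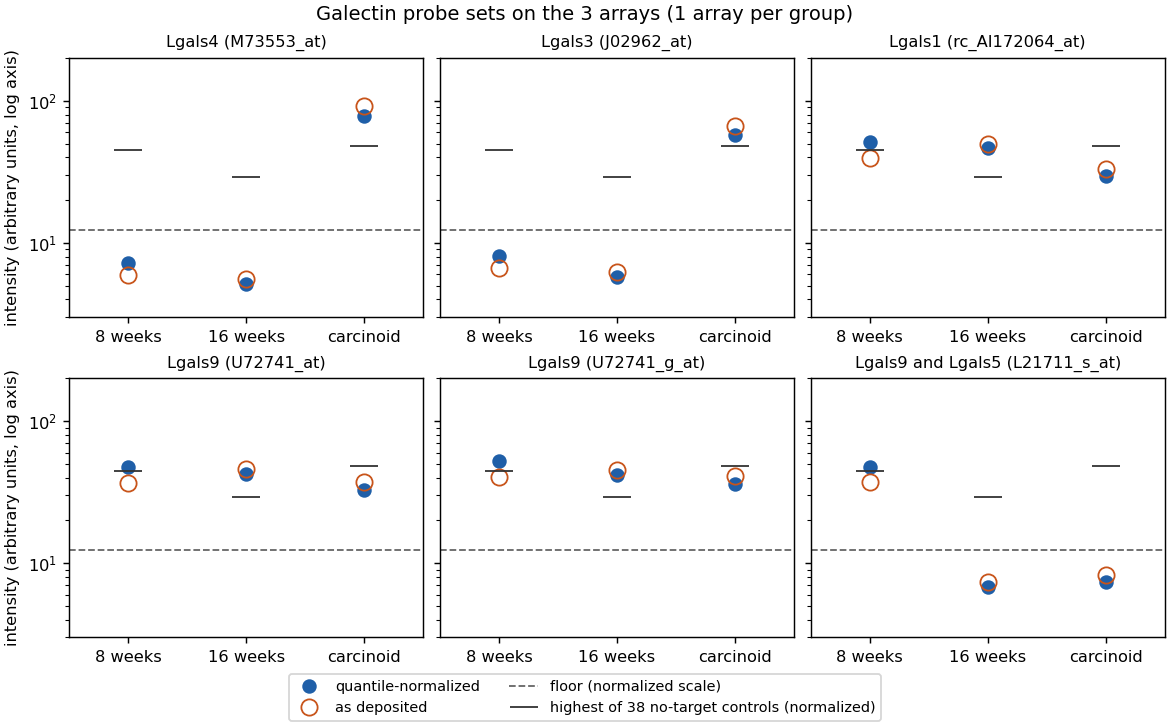
Intensity (log axis, arbitrary units) of the 6 galectin probe sets on the 8-week, 16-week and carcinoid arrays, 1 array per group, after quantile normalization (filled) and as deposited (open). The dashed line is the floor of 12.4 and the short bars are the brightest of 38 no-target controls on each array; Lgals4 and Lgals3 exceeded both only in the carcinoid, and the probe set shared by Lgals9 and Lgals5 only at 8 weeks.

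Lgals1, a prototype galectin of mesenchymal cells that forms dimers, was above the floor on every array. Its probe set rc_AI172064_at read 39.3 at 8 weeks, 49.5 at 16 weeks and 33 in the carcinoid as deposited, and 51.1, 46.2 and 29.5 after normalization. The carcinoid value was the lowest on both scales. On the normalized scale it was 1.73-fold below 8 weeks (log2 difference -0.79) and 1.57-fold below 16 weeks (-0.65). The values at 16 and 8 weeks differed 1.11-fold. The spread between probe sets of a gene, the single estimate of measurement error here, was 0.82 on the log2 scale over 395 genes when the carcinoid was set against 8 weeks. It was 0.62 over 457 genes against 16 weeks, and 0.79 over 410 genes between 16 and 8 weeks. The Lgals1 differences were smaller than or close to that spread. It compares probe sets on the same arrays, so it holds no variation between animals or samples. Scaling by bacterial hybridisation controls turned the first into 0.26 and the second into 0.01. Of the 38 no-target controls, 3 read at or above Lgals1 in the carcinoid.

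Lgals9, a tandem-repeat galectin also described as an eosinophil attractant, had 2 probe sets made from the same sequence, which are not independent readings. U72741_at read 36.7, 45.7 and 37.1 as deposited at 8 weeks, at 16 weeks and in the carcinoid, and 47.2, 42.5 and 32.7 after normalization. U72741_g_at read 40.2, 45 and 40.8 as deposited, and 52.7, 41.8 and 35.8 after normalization. Both were above the floor on every array, and both had their lowest normalized value in the carcinoid. Carcinoid over 8 weeks gave log2 differences of -0.53 and -0.56, and carcinoid over 16 weeks gave -0.38 and -0.22. At 16 against 8 weeks they were -0.15 and -0.33. The probe sets lay 0.03, 0.15 and 0.18 apart in these comparisons. In the values as deposited, carcinoid and 8 weeks differed by 0.02 on each probe set, so the direction on the normalized scale depends on the scaling. Of the 38 no-target controls, 2 reached each Lgals9 probe set in the carcinoid.

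The probe set annotated to Lgals9 and Lgals5 together was highest at 8 weeks on both scales. Those annotated to Lgals9 alone were highest at 16 weeks as deposited. After normalization they too were highest at 8 weeks, with smaller differences. Lgals5 is a prototype galectin described in rat red blood cells and reticulocytes, and its sequence is close to a domain of Lgals9. L21711_s_at read 37.1 at 8 weeks, 7.3 at 16 weeks and 8.2 in the carcinoid as deposited. After normalization it read 47.8, 6.82 and 7.36. Here the 8-week value was alone above the floor, and 0 of the 38 controls reached it, although the brightest read 44.8. Of the controls, 16 reached the probe set at 16 weeks and 20 in the carcinoid. Its percentile in the array was 85.8 at 8 weeks, 36.4 at 16 weeks and 38.1 in the carcinoid.

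The shared probe set was at least 3.86-fold lower at 16 weeks and in the carcinoid than at 8 weeks (log2 difference -1.95 or below). With the floor at 30 the bound was 1.59-fold. At 16 against 8 weeks its bound lay 1.80 and 1.62 below the log2 differences of the Lgals9 probe sets. The spread between probe sets of a gene was 0.79 there, but it is scaled to a single probe set. A gap between 2 probe sets spreads wider than that, by the square root of 2. In 34.1% of 410 genes, however, the probe sets compared were over 1 apart on the log2 scale. That mark is smaller than the gaps above, and those pairs reached the floor on both arrays, unlike the shared probe set. The 8-week array is that with the high GAPDH 3' to 5' ratio, whose part in the shared probe set was not tested. The 7 erythroid markers with a probe set, of 17 listed, summed to a normalized intensity of 351 at 8 weeks, 289 at 16 weeks and 287 in the carcinoid. None of the 7 was at least 2-fold apart at 16 against 8 weeks, beside 12.7% higher and 11.9% lower of 3658 genes. The part of erythroid cells in the shared probe set was not tested. The band 3 anion exchanger Slc4a1, picked out after its values were seen, read 102, 74.3 and 87.1.

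Counted by probe set, 2 of 6 galectin probe sets were at least 2-fold higher and 1 at least 2-fold lower in the carcinoid than at 8 weeks, with a median log2 difference of -0.54. Among 5620 probe sets at or above the floor on 1 or both arrays, 14.6% were higher and 14.1% lower by that mark. In the carcinoid against 16 weeks the median was -0.11, and 2 were higher and 0 lower. The background there was 9.36% higher and 9.74% lower of 5439 probe sets. The higher probe sets were Lgals3 and Lgals4, the genes that led to the choice, so nothing is read from those counts. At 16 against 8 weeks, 0 of 6 were higher and 1, the shared probe set, was lower. The background was 13.9% higher and 13.1% lower of 5586 probe sets. The 3 comparisons share arrays and are not independent. Medians over all probe sets were -0.03, 0.01 and -0.01 in these comparisons.

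**Figure D2:**
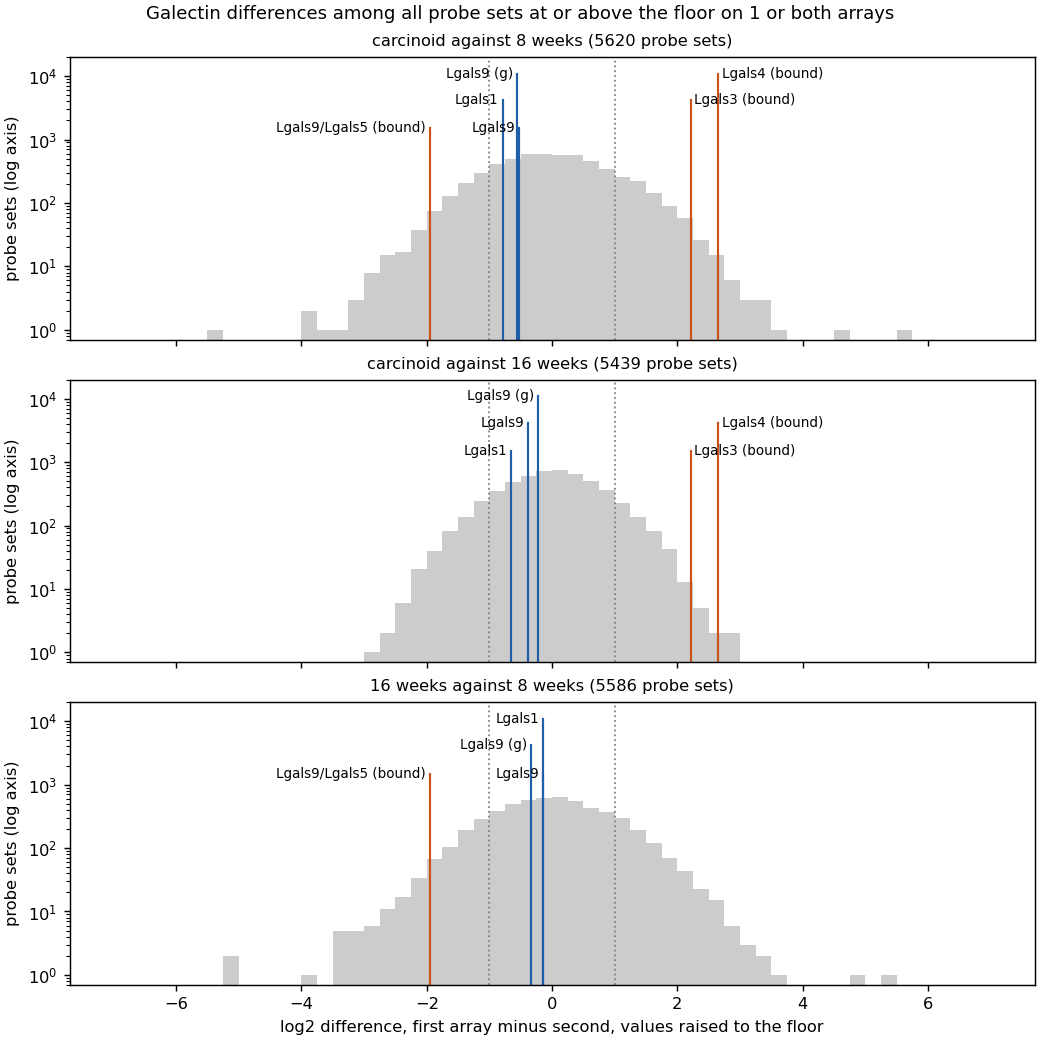
Distribution of log2 differences (first array minus second, values raised to the floor; counts on a log axis) over all probe sets at or above the floor on 1 or both arrays, with galectin probe sets as vertical lines, orange for bounds and blue for values measured on both arrays. Dotted lines mark 2-fold; Lgals4 (2.65) and Lgals3 (2.21) lie in the upper tail of both carcinoid comparisons, and Lgals1 and Lgals9 lie within 2-fold.

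The direction of the large differences held under each of the 8 settings tried. The settings reuse the same values and a change of floor cannot reverse a sign, so nothing is read from that direction. Lgals4 in the carcinoid ranged from 1.38 to 3.44 on the log2 scale against 8 weeks and from 1.38 to 3.92 against 16 weeks. Lgals3 ranged from 0.93 to 2.83 and from 0.93 to 3.31. The shared probe set at 16 against 8 weeks ranged from -2.81 to -0.67. Lgals1 and both Lgals9 probe sets stayed under 2-fold in each setting and comparison, and their sign changed with the scaling.

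**Figure D3:**
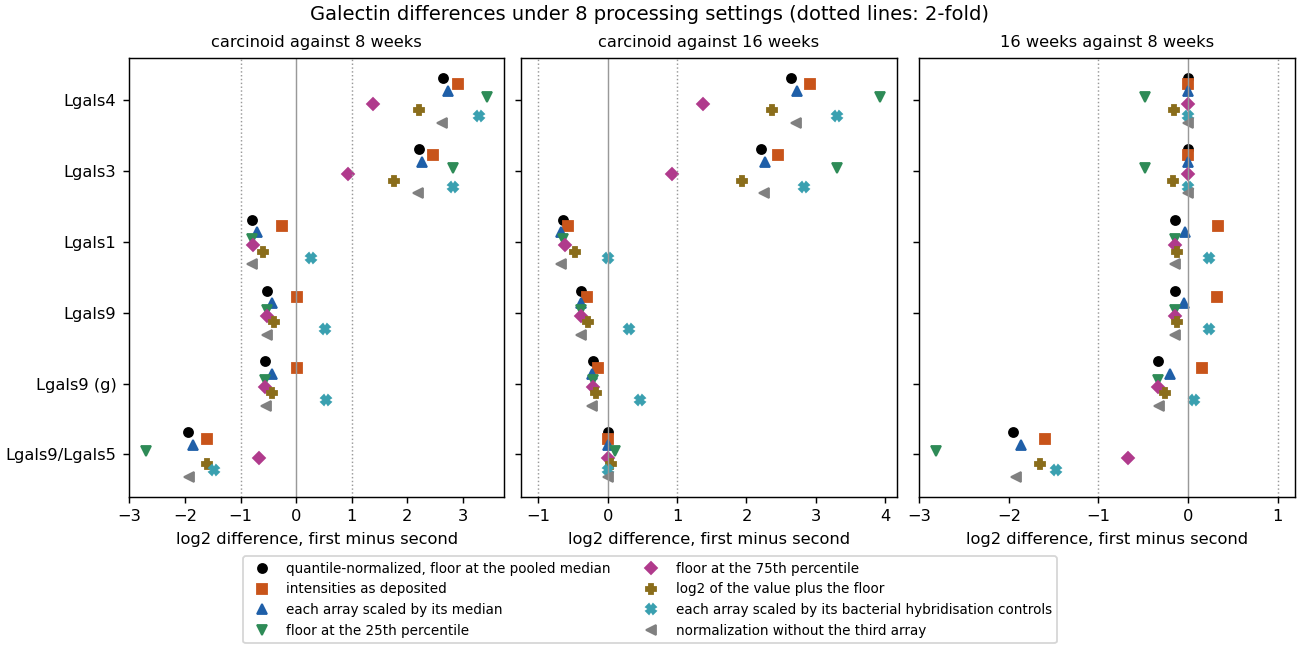
Log2 difference (first array minus second) of each galectin probe set under 8 processing settings in the 3 comparisons. Dotted lines mark 2-fold; points of Lgals4 and Lgals3 stay right of 0 in both carcinoid comparisons, with the floor at the 75th percentile giving their smallest values, 1.38 and 0.93.

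The other galectins on the array were Lgals8 and Lgals7. Lgals8, a tandem-repeat galectin that recognises damaged vesicles, read 19.6 at 8 weeks, 15.9 at 16 weeks and 30.2 in the carcinoid as deposited, and 24, 15 and 27 after normalization. It was above the floor on every array, highest in the carcinoid as deposited, and 1.79-fold higher in the carcinoid than at 16 weeks (log2 difference 0.84). Against 8 weeks the difference was 1.13-fold. Lgals7, a prototype galectin of stratified epithelium, was below the floor on each array (normalized 8.26, 2.86 and 5.67). On the normalized scale, neither these genes nor Lgals1 or Lgals9 had a carcinoid value 2-fold above both loxtidine arrays.

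Galectin partners, the glycoproteins and intracellular proteins that galectins are known to bind, differed in both directions. Of 36 listed, 26 had a probe set and 23 reached the floor. In the carcinoid against 8 weeks, 2 were at least 2-fold higher and 6 lower (8.7% and 26.1%), beside 13.4% and 12.8% of 3658 genes. Their median was -0.44. As deposited it was 0.02, where that of all genes was 0.34. The counts were then 4 higher and 3 lower, beside 884 and 198 of 3669 genes. Against 16 weeks, where the median was 0.00, 2 were higher and 2 lower, beside 8.45% each way over all genes. At 16 against 8 weeks, 1 was higher and 7 lower with a median of -0.52, beside 12.7% and 11.9% over all genes. As deposited, 3 were higher and 3 lower in that comparison, beside 748 and 208 of 3669 genes.

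The integrin subunit Itgb4, which anchors epithelia to laminin, was 2.95-fold higher in the carcinoid than at 8 weeks and 2.36-fold higher than at 16 weeks, reading 21.3, 26.6 and 62.8. The other 3 genes that the naming rule took from this list were lower in the carcinoid. The adhesion receptor Ceacam1 (38.8, 6.5 and 9.99) was at least 3.13-fold lower and the peptidase Dpp4 (36.4, 25.4 and 10.2) at least 2.94-fold lower in the carcinoid than at 8 weeks. The surface glycoprotein Thy1 (34.4, 10.3 and 1.62) was at least 2.78-fold lower. Its other probe set read 1.78, 14.3 and 10.9, reaching the floor at 16 weeks alone, and the other Dpp4 probe set was below the floor throughout (2.16, 10.6 and 1.42).

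Some partners of particular note for Lgals3 were picked out after their values were seen. The lysosomal membrane protein Lamp1 read 166, 181 and 148 and stayed within 2-fold. Its relative Lamp2 read 41.1, 52.1 and 22.6 and was 2.31-fold lower in the carcinoid than at 16 weeks. The mucin Muc1 read 98.8, 119 and 110. Lgals3bp, a secreted glycoprotein that binds Lgals3, had a pair of probe sets that disagreed. AF065438_at read 21.7, 40.9 and 32.2, and was 1.48-fold higher in the carcinoid than at 8 weeks. C07012_f_at read 119, 47.5 and 46.9 and was 2.55-fold lower. Neither was more than 1.27-fold apart between carcinoid and 16 weeks.

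Enzymes that build or cap the beta-galactoside glycans bound by galectins were represented by 18 of 25 listed genes, of which 14 reached the floor. In the carcinoid, 0 were at least 2-fold higher and 2 lower than at 8 weeks (0% and 14.3%), beside 13.4% and 12.8% of all genes. The median was -0.26, or 0.01 as deposited. Against 16 weeks 1 was higher and 4 lower (7.14% and 28.6%), beside 8.45% each way over all genes. There the median was -0.41, or -0.31 as deposited. Mgat1, which starts complex N-glycan synthesis, was 5.2-fold lower than at 8 weeks on its brightest probe set (64.6, 46.3 and 12.4), with the carcinoid value at the floor. Its remaining probe sets were 2.55-fold higher and 1.24-fold lower, so they gave no common direction. The galactosyltransferase B4galt1 (38.2, 10.1 and 6.78) was at least 3.09-fold lower. Its relative B4galt6 (2.91, 4.96 and 22.2) was at least 1.8-fold higher, and the glycolipid enzyme Ugt8 (18.6, 18.5 and 10.5) at least 1.5-fold lower. Mgat5, which makes the branched glycans favoured by Lgals3, was below the floor on every array. At 16 against 8 weeks, 3 of the 14 were higher and 2 lower (21.4% and 14.3%), beside 12.7% and 11.9% of all genes.

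Markers of cell types that make galectins were read beside them. Of 23 surface and gut epithelium markers, 18 had a probe set, and 9, 13 and 12 reached the floor at 8 weeks, at 16 weeks and in the carcinoid. Their summed normalized intensity was 1460, 1471 and 2057. The trefoil peptide Tff1, picked out after its values were seen, gave most of each sum (1124, 831 and 1213). The other 17 markers summed to 336, 641 and 844. In the carcinoid, 4 of 13 were at least 2-fold higher and 1 lower than at 8 weeks (30.8% and 7.69%), beside 13.4% and 12.8% of all genes, with a median of 0.66. Against 16 weeks, 2 were higher and 1 lower (15.4% and 7.69%), beside 8.45% each way, with a median of 0.49. As deposited 8 of the 13 were higher and 0 lower than at 8 weeks, beside 884 and 198 of 3669 genes. Against 16 weeks 3 were higher and 1 lower as deposited, beside 411 and 321. The medians of the markers were then 1.17 and 0.56, beside 0.34 and 0.03 over all genes. With scaling by the hybridisation controls, 10 and 8 of the 13 were higher and 0 lower. Of 3707 genes, 1557 and 1098 were then higher and 109 and 145 lower, with medians of 0.79 and 0.56. The surface mucin Muc5ac (15.8, 168 and 213) was 13.4-fold higher in the carcinoid than at 8 weeks, and 1.26-fold higher than at 16 weeks. Its other probe set was 4.64-fold higher and 1.37-fold lower in these comparisons. The simple-epithelium keratin Krt8 (41.5, 118 and 203) was 4.89-fold and 1.72-fold higher. Krt19 (1.78, 15.8 and 47.4) was at least 3.83-fold and 3-fold higher on its brightest probe set, but 1.94-fold lower than at 16 weeks on the other. The membrane linker Ezr (4.29, 27.5 and 31) was at least 2.51-fold higher than at 8 weeks and 1.13-fold higher than at 16 weeks. Also picked out after their values were seen, the trefoil peptides Tff2 and Tff3 differed in direction. Tff2 (44.8, 19.3 and 65.6) was 1.47-fold and 3.4-fold higher in the carcinoid than at 8 and 16 weeks. Tff3 (62.7, 60 and 25.2) was 2.49-fold and 2.38-fold lower. The intestinal markers Cdh17, Krt20 and Fabp1 were below the floor on every array, and Fabp2 (2.59, 17.9 and 2.45) reached it at 16 weeks alone. The part of epithelial cell content in the Lgals4 and Lgals3 values was not tested.

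Of 20 macrophage markers listed, 11 had a probe set, and 9, 7 and 6 reached the floor on the arrays in the same order. Their summed intensity was 400, 197 and 188. In the carcinoid, 0 of 11 were at least 2-fold higher and 3 lower than at 8 weeks (27.3% lower), beside 13.4% higher and 12.8% lower of all genes, with a median of -0.74. Against 16 weeks, 0 were higher and 1 lower (9.09%), beside 8.45% each way, with a median of 0.00. The first median was below 0 as deposited too (-0.28), and the second became 0.90 over 9 genes with scaling by the hybridisation controls, where that of all genes was 0.56. With that scaling 1 and 3 of the 9 were at least 2-fold higher, beside 1557 and 1098 of 3707 genes. By the same mark 2 and 0 were lower, beside 109 and 145 genes. The monocyte receptor Cd14 (69.2, 56.9 and 28.2) was 2.45-fold lower in the carcinoid than at 8 weeks, and its other probe set 1.16-fold lower. The complement component C1qb (92, 3.58 and 15.7) was 5.88-fold lower, while its other probe set was below the floor throughout. The MHC class II chaperone Cd74 (35.3, 1.29 and 1.42) was at least 2.86-fold lower, and lysozyme, Lyz2 (22.1, 18.5 and 4.82), at least 1.79-fold lower. Of the other Cd74 probe sets, X13044_g_at was at least 1.68-fold lower and the rest were below the floor on every array. Csf1r and C1qc were picked out after their values were seen. Csf1r (10.5, 8.33 and 21.7) reached the floor in the carcinoid alone, at least 1.75-fold above each loxtidine array. C1qc (64.7, 44 and 57.1) stayed within 2-fold. The part of macrophage content in the Lgals3 value was not tested.

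Of 17 fibroblast and smooth muscle genes at or above the floor, 4 were at least 2-fold higher and 4 lower in the carcinoid than at 8 weeks (23.5% each), beside 13.4% and 12.8% of all genes. The median was -0.27. Without normalization it became 0.15, and the counts became 5 and 1, beside 884 and 198 of 3669 genes. Against 16 weeks 0 were higher and 1 lower (5.88%), beside 8.45% each way, with a median of 0.30. With scaling by the hybridisation controls 8 of 18 were higher and 0 lower there, beside 1098 and 145 of 3707 genes. The median was then 0.95, beside 0.56 over all genes. The matrix proteoglycan Dcn (1090, 317 and 262) was 4.16-fold lower in the carcinoid than at 8 weeks on its brightest probe set, and its other probe sets ranged from at least 1.62-fold lower to 1.24-fold higher. The matrix protein Sparc (116, 107 and 38.5) was 3.01-fold lower, with 1.33-fold and 2.04-fold lower on other probe sets. The myosin light chain Myl9 (20.8, 58.8 and 72.3) was 3.47-fold higher.

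Of 7 erythroid markers, 0 were higher and 1 lower in the carcinoid than at 8 weeks (14.3% lower), beside 13.4% and 12.8% of all genes. The markers had a median of -0.41, or 0.14 as deposited. As deposited 1 was higher and 0 lower, beside 884 and 198 of 3669 genes. The globins Hba-a3 (24.9, 20.5 and 3.92) and Hbb-b1 (109, 93.1 and 71.7) were at least 2.01-fold and 1.51-fold lower. The haem enzyme Alas2 (33.2, 37.3 and 64.8) was 1.95-fold higher, and the transcription factor Gata1 (22.6, 8.23 and 16.7) 1.36-fold lower. Of 10 ECL and neuroendocrine markers, 0 were higher and 4 lower than at 8 weeks (40% lower), beside 13.4% higher and 12.8% lower of all genes, with a median of -0.44. Against 16 weeks, 0 were higher and 2 lower (20%), beside 8.45% each way, and the median was -0.69. These medians were -0.18 and -0.56 as deposited, and 0.07 and 0.03 with scaling by the hybridisation controls. As deposited 1 of the 10 was higher and 1 lower than at 8 weeks, beside 884 and 198 of 3669 genes. With the controls' scaling 3 were higher and 0 lower, beside 1557 and 109 of 3707 genes.

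The prohormone convertase Pcsk2 (33, 9.58 and 8.9) was at least 2.67-fold lower in the carcinoid than at 8 weeks, but its other probe set was at least 1.45-fold higher. The vesicle protein Syp (57.1, 33.6 and 26.7) was 2.14-fold lower. The granule protein Chgb (37.6, 35.4 and 17.7) was 2.12-fold lower. The gastrin receptor Cckbr (74.3, 56.5 and 35.3) on its brightest probe set was 2.11-fold lower. Its other probe set had another order (2.59, 33.4 and 2.85), above the floor at 16 weeks alone. Slc18a2 and Cpe, picked out after their values were seen, were not lower than at 8 weeks. Slc18a2 (21.7, 42.3 and 23.2) was 1.07-fold higher in the carcinoid than at 8 weeks, and 1.82-fold lower than at 16 weeks. Cpe (13.1, 22.8 and 22.5) was 1.71-fold higher and 1.01-fold lower.

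**Figure D4:**
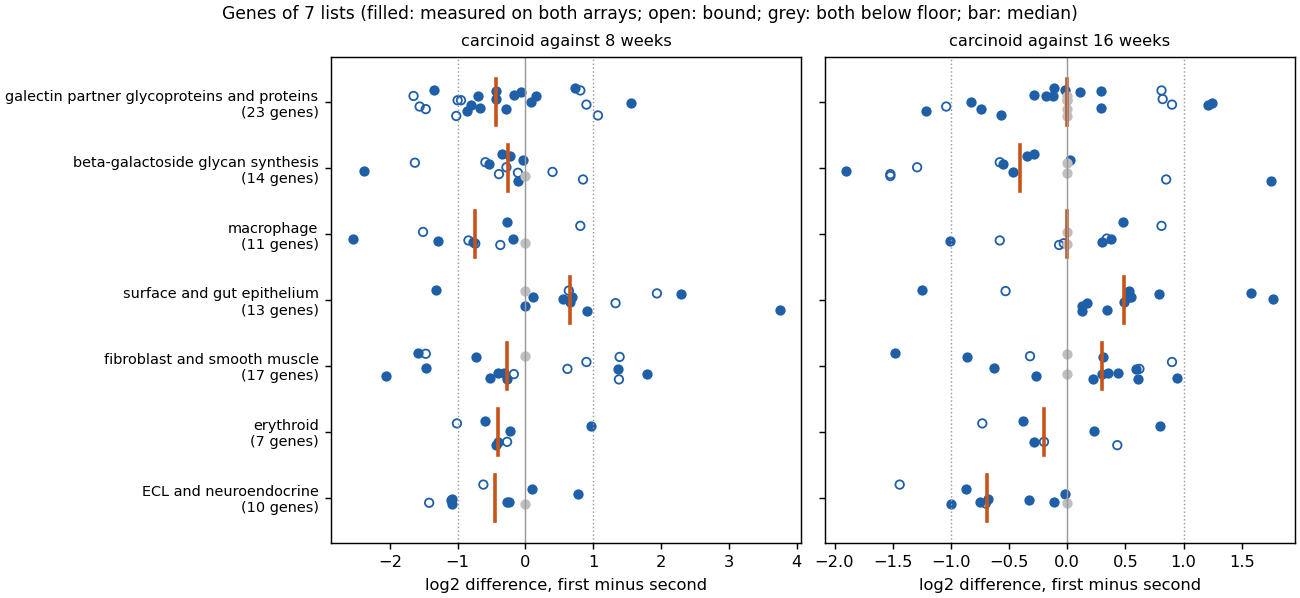
Log2 difference (first array minus second) of each gene in the 7 lists, carcinoid against 8 weeks (left) and against 16 weeks (right), with filled points measured on both arrays, open points bounds, grey points below the floor on both, and bars at list medians. The surface and gut epithelium median is 0.66 and 0.49, and the macrophage median is -0.74 and 0.00.

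Genes with the most similar 3-array profile were found by the distance between log2 profiles, raised to the floor and centred on their means, over 3654 genes. Lgals3 and Lgals4 were at the floor on both loxtidine arrays, so small differences there do not enter the distance. Nearest to Lgals4 were Atn1 (distance 0.16; 14.5, 13 and 95.6), Slc44a4 (0.19; 11.1, 14.7 and 80.5) and Hgs (0.37; 16.3, 17.7 and 78.3). Atn1 is a transcriptional corepressor, Slc44a4 a choline transporter of epithelia, and Hgs an endosomal sorting protein. The other Atn1 probe set was below the floor on every array. Within 0.5 of Lgals4 lay 4 genes, and 26 within 0.5 of Lgals3. Both galectins were chosen for their high carcinoid value, so nothing is read from these numbers. Nearest to Lgals3 were Hgs (0.08), Adprs (0.20) and Med13l (0.22).

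Nearest to the shared Lgals9 and Lgals5 probe set were the matrix protease Mmp2 (0.04), Crcp (0.04) and the sodium-chloride cotransporter Slc12a3 (0.05), with 88 genes within 0.5. Each of these read below the floor at 16 weeks and in the carcinoid, so the distance compares little more than the 8-week value. The other Mmp2 probe set, at 10.8, 19.8 and 1.97, was not highest at 8 weeks. The other Slc12a3 probe set was below the floor on every array (2.49, 10.2 and 6.1). Lgals1 was nearest to the adhesion protein Tns1 (0.02), Ybx1 (0.02) and Or2b2 (0.04), with 672 genes within 0.5. Lgals9 was nearest to Ucn (0.02), Muc3 (0.03) and Tcf3 (0.03), with 1106 within 0.5. The other Tcf3 probe set (3.28, 33.5 and 16.2) was highest at 16 weeks. So were the other Muc3 probe sets (48.4, 52.2 and 8.39, and 1.78, 23.2 and 6.18). Flat profiles such as those of Lgals1 and Lgals9 were common on these arrays, and the likeness rests on 3 arrays.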

How the data were processed

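For each array the authors deposited a table with 1 linear intensity for every probe set. How it was summarised, background-corrected and scaled is not given in the sources used here. Detection calls were not used. Gene names came from the platform annotation: of 8740 non-control probe sets, 7006 had 1 symbol, 308 several and 1426 none. The 2% trimmed means of the arrays differed by 52.4%, over the 5% allowed, so the arrays were quantile-normalized together. A fold is given where both arrays reached the floor, and a bound where 1 did. Where a listed gene had several probe sets, the brightest by mean deposited value stood for it.

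The members and gene lists were chosen with earlier results of these data known. Per list, up to 4 genes with the largest carcinoid against 8 weeks difference were named, and per galectin the 3 genes of nearest profile. With 1 array per group no test was run. The spread between probe sets is the root mean square gap of 1 pair per gene, divided by the square root of 2. The number of arrays limits the precision. Alternatives were the values as deposited, median scaling, other floors, log2 of the value plus the floor and the median of a gene's probe sets. Scaling by 9 hybridisation controls and normalization without the third array were added after seeing the data. The steps were tested on simulated data that had no dim probe sets and less noise than the spread found here. That run did not test bounds that rest on a dim value. Python 3.11.15, numpy 2.4.6 and pandas 2.3.3 were used.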

Additional observations from a re-analysis of the deposited data

How the results depend on the processing

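The signs of the Lgals3, Lgals4 and shared Lgals9 and Lgals5 differences named as at least 2-fold held in all settings tried. A change of floor cannot reverse a sign. The sizes of these differences depended on the floor, since each rests on a value below it. With the floor at the 75th percentile, 1 galectin probe set was at least 2-fold apart in the carcinoid against 8 weeks. Of all probe sets reaching that floor, 8.17% were higher and 7.14% lower. Against 16 weeks the count was 1, beside 2.87% and 2.95%. At 16 against 8 weeks the count was 0, beside 7.02% and 6.18%. With this floor Lgals3 had a log2 difference of 0.93 and Lgals4 of 1.38 in both carcinoid comparisons. With the floor at the 25th percentile they were 3.31 and 3.92 against 16 weeks. With scaling by the hybridisation controls they were 2.83 and 3.30 against 16 weeks. All probe sets then shifted by a median of 0.81 against 8 weeks and 0.60 against 16 weeks, and as deposited by 0.42 and 0.09. Leaving the third array out of the normalization changed none of the 3 counts. Taking the median of its probe sets left Lgals9 within 2-fold. Leaving out a replicate was not possible with 1 array per group. The intensities carry no depth, and signal near the floor overlaps that of the no-target controls.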
